A study of Mus musculus with 2 samples.

Results

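Mir101a and Mir101b are mouse genes of miR-101, a microRNA known for repressing Ezh2. They were found by Ensembl identifier and are 2 of the 1973 miRNA genes in the deposited count tables. The data come from short RNA of liver from B6NCrl mouse embryos at day 12.5, all healthy and with the sexes pooled, sequenced as 2 biological replicates of a single group. Replicate 2 came from 88 pooled embryos and replicate 1 from 120, and the labels name no treatment, mutation or second tissue. Liver at this age holds blood-forming cells as well as hepatoblasts, so each value is an average over cell types, and fewer cells of a type cannot be told apart from less miRNA per cell.

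A miRNA is cut from a hairpin and guides the silencing complex to messenger RNAs that pair with its seed, here bases 2 to 8 of the mature strand counted from its 5′ end. Ezh2 is the methyltransferase of the Polycomb complex PRC2, which methylates histone H3 and keeps genes silent. It is known to act in stem and progenitor cells, those of the blood included. Loss of miR-101 is known from several human cancers, where EZH2 is then raised. No messenger RNA or protein was measured in these libraries, so the values below are miRNA levels.

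The main strand of each gene is the 3p arm. Both 3p arms are shown because a shift of 1 base at the 5′ end gives them different seeds, and the arms of miR-101c and miR-144 because they carry the 6 bases common to both seeds, miR-101c from its base 1 and miR-144-3p from its base 2. Sequences are those of RefSeq on GRCm38.p6, the build also called mm10, with bases 2 to 8 in capitals.
miR-101a-3p: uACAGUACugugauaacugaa
miR-101b-3p: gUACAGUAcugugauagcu
miR-101c: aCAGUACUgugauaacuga
miR-144-3p: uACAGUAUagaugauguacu

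Aligned with an offset of 1 base, miR-101a-3p and miR-101b-3p were the same at 17 of 18 bases and differed by A16G, with positions counted from the 5′ end of miR-101a-3p. The seeds of these arms share the 6 bases ACAGUA, which begin at base 2 of miR-101a-3p and at base 3 of miR-101b-3p. miR-144-3p has these 6 bases at the same place as miR-101a-3p. The 19 bases of miR-101c all lie within the 21 bases of miR-101a-3p. Its gene Mir101c (ENSMUSG00000106183.1, chromosome 9, 3038669 to 3038743, minus strand) is not analysed here.

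The hairpins are shown because they set which reads can be told apart. The 3p arm is in capitals.
Mir101a: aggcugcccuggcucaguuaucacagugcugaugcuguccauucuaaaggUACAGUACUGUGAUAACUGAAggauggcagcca
Mir101b: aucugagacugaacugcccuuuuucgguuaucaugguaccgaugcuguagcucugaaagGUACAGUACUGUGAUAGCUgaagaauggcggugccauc

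The longest run of bases that the hairpins have in common is 20, which takes in part of the 3p arm and bases before it. Within the 3p arms the longest common run is 15 bases. Mir101a also shares 19 bases with Mir101c, and Mir101b shares 14 with it. Only reads that aligned to a single place were counted per gene, and reads aligned to several places made up 31.1% of replicate 2 and 28.8% of replicate 1. A read of miR-101a-3p shortened to the bases of miR-101c also matches Mir101c, so Mir101a can be undercounted. How many such reads were lost was not tested. Of the genes in GENCODE M21, only Mir101b had a transcript with 18 bases of miR-101b-3p in a row.

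In mm10 coordinates of GENCODE M21, Mir101a (ENSMUSG00000065451.1) spans chromosome 4, 101346945 to 101347027, on the minus strand. This annotation does not leave Mir101a between genes. An exon of E130102H24Rik, a long noncoding RNA of the same strand, takes in the hairpin, and no protein-coding gene overlaps it. Mir101b (ENSMUSG00000065556.1) is on the plus strand of chromosome 19, from 29135279 to 29135375. It lies in an intron of Rcl1, a gene of the same strand that encodes a protein of ribosomal RNA processing. That intron is 8638 bases long and Mir101b begins 776 bases after the exon upstream. Neither Rcl1 nor E130102H24Rik was measured, so their expression in these livers is not known from the files.

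The same kinds of gene flank both loci. Upstream of Mir101a the nearest protein-coding gene is Ak4, 72.25 kb away on the opposite strand, and upstream of Mir101b it is Ak3, 87.32 kb away on the opposite strand. Both encode adenylate kinases of mitochondria. Downstream the nearest protein-coding gene is Jak1 for Mir101a, 81.66 kb away, and Jak2 for Mir101b, 116.5 kb away, each on the strand of the miRNA. Both encode Janus kinases, which carry signals from cytokine receptors. No other miRNA gene lies within 10 kb of Mir101a or Mir101b.

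**Figure D1:**
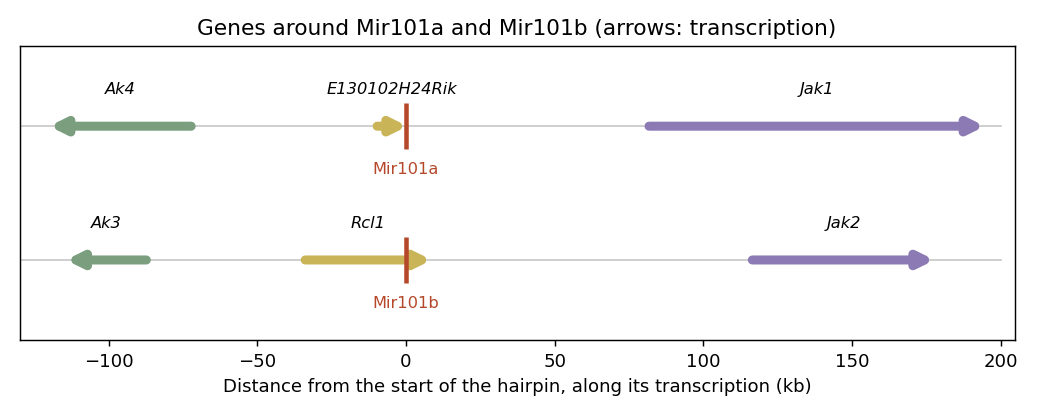
Map of the genes around Mir101a (top) and Mir101b (bottom), with the distance in kb from the start of the hairpin along its direction of transcription, and arrows for the direction of each gene. The red bars mark the hairpins, and both loci run from an adenylate kinase gene through the host transcript to a Janus kinase gene (other genes are not drawn).

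In reads with a single place, liver at day 12.5 carried both miR-101 genes, with Mir101a far below Mir101b. Levels are sense-strand counts per 1000000 such counts on all miRNA genes (CPM). Mir101a had 432 counts or 122 CPM in replicate 2 and 367 counts or 106 CPM in replicate 1. Mir101b had 15741 counts or 4453 CPM in replicate 2 and 13348 counts or 3871 CPM in replicate 1. The genes' values do not overlap, and replicate 2 is the higher library for both.

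Mir101a averaged 114 ± 11.2 CPM and Mir101b averaged 4162 ± 411 CPM (SD, n = 2 each). The exact Poisson 95% intervals for Mir101a were 111 to 134 CPM in replicate 2 and 95.8 to 118 CPM in replicate 1. For Mir101b they were 4384 to 4523 CPM and 3806 to 3938 CPM. These intervals cover counting error only and leave out the spread between pools. The reads carry no molecular identifiers, so even the counting error can be understated. Together the genes held 0.428% of the sense counts, nearly all of it on Mir101b. Neither gene had a count on the opposite strand in either library, and the counts of a gene do not tell the 5p arm from the 3p arm.

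Mir101a reached 0.0274 of the Mir101b count in replicate 2 (exact Clopper-Pearson 95% interval 0.0249 to 0.0302) and 0.0275 in replicate 1 (0.0247 to 0.0305). As a share of both genes together, Mir101a made up 2.67% in replicate 2 and 2.68% in replicate 1. The mean log2 ratio of Mir101a to Mir101b was -5.19 ± 0.0019 (SD, n = 2). A two-sided Fisher's exact test of the 4 counts gave no difference in this ratio between the libraries (odds ratio 0.998, p = 1). It compares 1 library with 1 library and covers counting error only. The gap between the libraries' ratios is smaller than the interval of either. Shortened reads of miR-101a-3p that also match Mir101c were not counted, so the ratio can be too low. The 3p arms match at 17 of 18 aligned bases, so Mir101b reads placed on Mir101a through a misread base would raise the ratio. How far either goes was not tested. A read of a size-selected library comes from 1 short RNA, so the levels were not divided by length. Without molecular identifiers, several reads can come from the same RNA. Per base of the annotated hairpin, 83 bases for Mir101a and 97 for Mir101b, the ratio was 0.0321.

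Among the 1973 listed genes Mir101a ranked 207 and Mir101b ranked 51 by mean level. At 10 CPM in both libraries 301 genes were detected, and 31.2% of them lay below Mir101a and 83.1% below Mir101b. Mir101a stood next to Mir574 at 116 ± 8.90 CPM and Mir668 at 113 ± 5.51 CPM (SD, n = 2). It was within the larger SD of the pair from 23 other genes, so its place in the order is not sharp. Mir101b stood next to Mir214 at 4543 ± 398 CPM and Mir139 at 4103 ± 530 CPM. It was within that spread from 7 other genes.

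Likeness of level was measured as the sum over both libraries of the absolute difference of log2(CPM + 1). The genes nearest to Mir101a were Mir574, in Fam114a1, at 0.042, Mir668, in Mirg of the imprinted Dlk1-Dio3 region, at 0.099, and Mir326, in Arrb1, at 0.162. Those nearest to Mir101b were Mir214 at 0.254, Mir140, in the cartilage-linked gene Wwp2, at 0.268, and Mir351 at 0.304. These distances rest on 2 libraries of 1 tissue.

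Set against detected genes in the same kind of place, Mir101a lay below the median but within the quartiles. Mir101b lay above the upper quartile. Among listed genes in an exon of a gene on their strand, 69 of 270 were detected at 10 CPM in both libraries, with a median of 252 CPM and quartiles of 69.8 and 3288 CPM. Mir101a ranked 48 among these 69. Among genes in an intron of a protein-coding gene, 103 of 652 were detected, with a median of 259 CPM and quartiles of 50.1 and 1570 CPM. Mir101b ranked 13 among these 103. The 83 detected of 646 genes that lie between genes had a median of 470 CPM. These are descriptions of M21 classes, with no test, and levels within each class spread far more widely than the class medians.

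**Figure D2:**
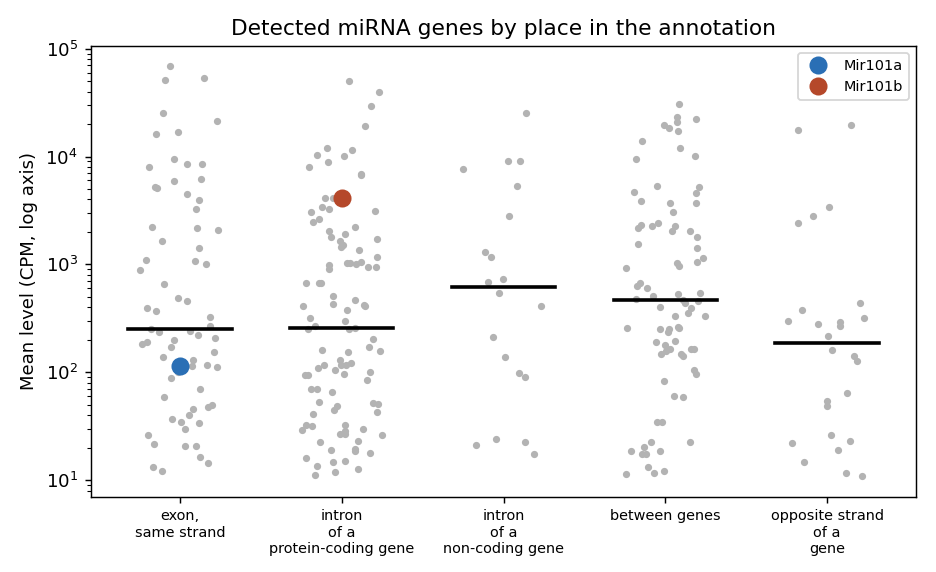
Mean level in CPM (log axis) of each miRNA gene detected at 10 CPM in both libraries, by its place in GENCODE M21, with a black line at the median of each class. Mir101a, at 114 CPM, lies below the median of its class and Mir101b, at 4162 CPM, lies above the median of its class.

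Both miR-101 genes were higher in replicate 2 than in replicate 1, by nearly the same factor. This compares 2 libraries, not conditions. With library sizes scaled by TMM, Mir101a had a log2 ratio of replicate 2 over replicate 1 of 0.25 (95% interval 0.05 to 0.46), or 1.19-fold. Mir101b had a log2 ratio of 0.26 (0.22 to 0.29), or 1.19-fold. By a two-sided exact binomial test with Benjamini-Hochberg adjustment over the 464 genes tested, both passed 0.05, with an adjusted p of 0.0348 for Mir101a and 1.3e-50 for Mir101b.

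That test covers counting error only and called 40.3% of all genes tested, 22% as higher in replicate 2, so a call is common here. The absolute ratio of Mir101a was exceeded by 50.6% of the genes tested, and that of Mir101b by 50%. These shares include genes with few counts, whose ratios have wide intervals. Among genes with at least 100 counts the median absolute log2 ratio was 0.18. Both Mir101a, with 0.25, and Mir101b, with 0.26, lay above that median. Mir101a lost its call when libraries were scaled to total sense counts (log2 ratio 0.20, adjusted p = 0.117, exact binomial test) and with DESeq2 size factors (0.23, adjusted p = 0.0600). In edgeR's negative binomial exact test with an assumed coefficient of variation of 0.1, neither gene passed, with adjusted p of 0.761 for Mir101a and 0.699 for Mir101b. Their unadjusted p values there were 0.275 and 0.211, and that test called 2.59% of genes. With the coefficient estimated from both libraries taken as a single group, 0.162, neither passed and 1.08% of genes were called. That estimate counts the difference under test as noise, so it cannot decide whether the libraries differ.

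**Figure D3:**
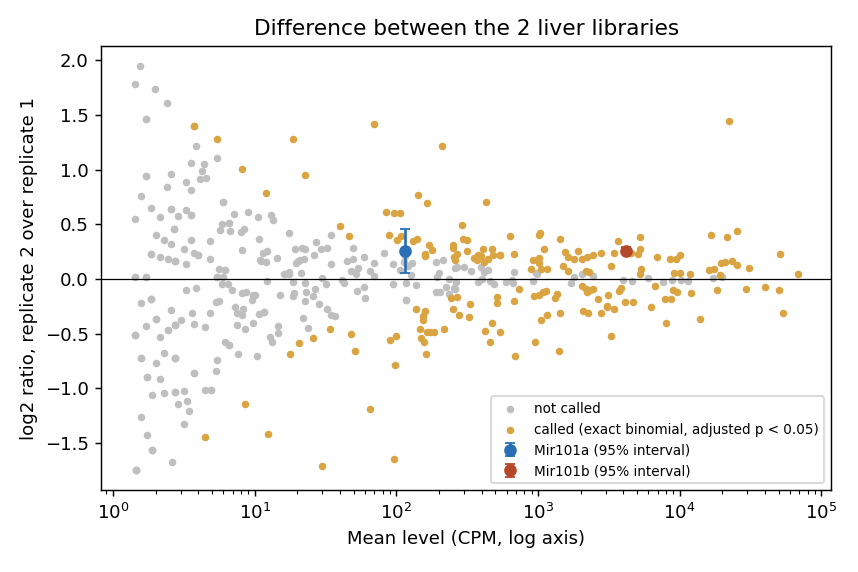
log2 ratio of replicate 2 over replicate 1 against mean level in CPM (log axis) for the 464 genes tested, with genes called by the exact binomial test in yellow and the others in grey. Mir101a (blue) and Mir101b (red), drawn with their 95% intervals, lie at almost the same height, 0.25 and 0.26, though their levels are far apart.

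The tissue label was checked against marker miRNAs in the same libraries. The hepatocyte markers summed to 48904 CPM in replicate 2 and 62738 CPM in replicate 1, with Mir122 at 47128 and 60913 CPM and Mir192 at 1777 and 1825 CPM. The erythroid markers summed to 37430 CPM in replicate 2 and 16926 CPM in replicate 1. Among them Mir451a had 32496 and 12422 CPM, Mir144 had 4042 and 3300 CPM, and Mir486 had 892 and 1204 CPM (replicates 2 and 1), so Mir486 ran against the other two. The endothelial Mir126a stood at 68164 and 68816 CPM, the 4 mesenchyme markers at 25434 and 23535 CPM, and the 2 myeloid markers at 5813 and 7168 CPM (replicates 2 and 1). Of the 3 neural markers analysed, Mir9-2 and Mir124a-1 had 0 counts, and the list summed to 1.13 and 1.74 CPM. Each of these miRNAs is known to come from several genes with the same mature strand, and reads with several places were not counted, so these values do not show that neural miRNAs are absent. The miR-101 genes were higher in the library with more Mir451a and less Mir122, the markers that set these sums. Mir486 was lower there and Mir192 nearly equal. Of the mesenchyme markers, Mir143, Mir145a and Mir214 were higher there too (log2 ratios of replicate 2 over replicate 1 of 0.15, 0.31 and 0.23). Mir199a-1 was lower (-1.01) and not called. The part of cell makeup in the difference of the miR-101 genes was not tested.

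Messenger RNAs pair with a seed through its reverse complement. For bases 2 to 8 of miR-101a-3p this is GTACTGT, for those of miR-101b-3p it is TACTGTA, and the run GTACTGTA holds both. They were searched on the transcript strand of the longest M21 3′ UTR of each coding gene, and the motifs overlap each other. The 3′ UTR of Ezh2 (ENSMUSG00000029687.16, chromosome 6, minus strand) is 402 bases long there and held 2 matches to the common bases TACTGT. They are shown because they are where the strands above can pair with Ezh2, with the matched bases in capitals.
Ezh2 site 1, chr6:47530473-47530496, mm10, minus strand: ttcaggaaccttgaGTACTGTggg
Ezh2 site 2, chr6:47530418-47530441, mm10, minus strand: tctgaatttgcaaaGTACTGTAac

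Site 1 matches the seed of miR-101a-3p, and within bases 2 to 8 of miR-101b-3p it matches only the 6 common ones. Site 2 matches both seeds in full. GTACTGT was present in 2.73% and GTACTGTA in 0.556% of the 1797 genes whose longest 3′ UTR is within 20% of the length of that of Ezh2. TACTGT was present in 11.3% of them. A match describes letters and does not show that the site is used.

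Of the other core PRC2 genes, Eed, which binds the methylated histone tail, held 1 match to TACTGT in 410 bases, of the miR-101a-3p kind. Rbbp7, a histone-binding subunit, held 1 match to GTACTGTA in 676 bases. Ezh1, the paralog of Ezh2, Suz12, a core scaffold subunit, and Rbbp4, a histone-binding subunit, held no match to TACTGT in 1824, 1933 and 2992 bases. For 3′ UTRs of like length, 11.5% held TACTGT for Eed and 24.5% for Rbbp7. The shares were 46.1% for Ezh1, 47.8% for Suz12 and 62.6% for Rbbp4.

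Other miRNAs known to repress Ezh2, in human or mouse cells, were set beside the miR-101 genes. All 14 listed genes were in the tables, and 9 reached 10 CPM in both libraries. Mir26b led with 38149 CPM in replicate 2 and 41752 CPM in replicate 1. Mir214, of mesenchymal cells, had 4824 and 4261 CPM, and Mir144, of red cell precursors, had 4042 and 3300 CPM (replicates 2 and 1). Mir98, of the let-7 family, had 2751 and 3413 CPM.

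Of the 14, Mir26b and Mir214 had a higher mean than Mir101b, and the gap to Mir214 lay within their SD. Mir26b, Mir214, Mir144 and Mir98 had a higher mean than Mir101a. The others lay between 0 and 99.6 CPM on average. Mirlet7a-1 averaged 99.6 ± 27.7 CPM and Mirlet7a-2 averaged 97.6 ± 39.2 CPM (SD, n = 2), so neither differed from Mir101a beyond the spread. Mirlet7a-1 has a mature strand that another gene also encodes, and let-7a is known to come from several genes, so these counts can be too low. Mir138-2 averaged 49.5 CPM, Mir26a-2 34.3 CPM, Mir138-1 22.6 CPM and Mir217 9.75 CPM, and Mir26a-1 had 9.34 and 10.7 CPM (replicates 2 and 1). The Mir124a genes had 0 counts. With a count of 0 taken to allow 3, there is room for 0.849 CPM (replicate 2) or 0.870 CPM (replicate 1) in reads with a single place. These values are a working allowance and not a hard limit. The Mir26a genes encode the same miR-26a-5p and the Mir138 genes the same miR-138-5p, so reads of those strands align to more than 1 place, and their low counts do not bound the mature miRNA. Mir101a and Mir101b have no mature strand that another gene in the RefSeq table encodes in full. Mir101a shares 19 bases with Mir101c, however, so its count can be too low as well.

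**Figure D4:**
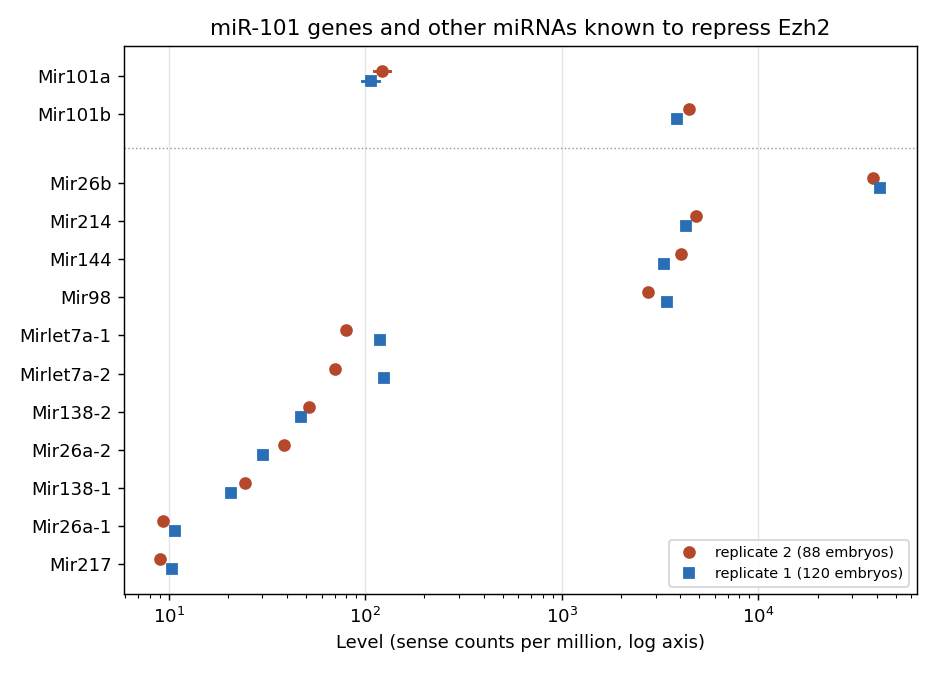
Level in CPM (log axis) in replicate 2 (red circles) and replicate 1 (blue squares) of the miR-101 genes, above the dotted line, and of the listed Ezh2-repressing miRNAs with counts, below it. Bars on the miR-101 genes are exact Poisson 95% intervals, and Mir101b at 4453 and 3871 CPM sits level with Mir214 and Mir144, well below Mir26b.

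Between the libraries, 11 of these 14 genes could be tested, with a median log2 ratio of replicate 2 over replicate 1 of -0.08 beside 0.02 over all 464 genes. By the exact binomial test 2 were higher in replicate 2, Mir214 with 0.23 and Mir144 with 0.35. A further 4 were lower, Mir26b with -0.08, Mir98 with -0.26, Mirlet7a-1 with -0.52 and Mirlet7a-2 with -0.79. The remaining 5 did not pass. This spread of directions stands beside the background of 40.3% called.

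Beside the miR-101 genes, Mir101c included, Mir144 and the miR-199 genes carry ACAGUA within bases 1 to 8 of a mature strand. The 3p arm of miR-199 starts with these bases. Mir199b had 336 CPM in replicate 2 and 249 CPM in replicate 1, Mir199a-2 had 51.5 and 40.6 CPM, and Mir199a-1 had 3.11 and 6.67 CPM (replicates 2 and 1). All 3 encode the same 3p strand, so their counts can be too low. The search for ACAGUA and for full seeds left out the miRNAs of chromosome 18. In the rest of the RefSeq table, no other mature miRNA had the full seed of miR-101a-3p or of miR-101b-3p.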

How the data were processed

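Per the labels, short RNA of 2 liver pools was sequenced, with a size range under 30. The authors deposited raw read counts per miRNA gene in 3 columns, for sense and opposite strand and their sum. Per the deposited file lists, the alignment is to mm10 and the genes are those of GENCODE M4. The aligner, the counter, their versions and the extraction were not given in the sources used here. Replicate 2 held 11013976 reads and replicate 1 held 11057424, of which 3534816 and 3447858 were sense counts on miRNA genes. Lines that name no gene stayed out of library sizes and tests. These lines were unmapped (25.8% and 29.4%), several places (31.1% and 28.8%) and no single listed gene in sense (11.0% and 10.6%). The labels give both pools one donor identifier, so their spread may in part be technical.

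Genes were named by identifier from GENCODE M21, on the same assembly (1894 of 1973 found). Both miR-101 genes matched RefSeq sequences by symbol. The exact binomial test (scipy 1.17.1) took genes with at least 10 counts over both libraries, TMM from edgeR 4.0.16 and Benjamini-Hochberg adjustment at 0.05, and log2 ratios had 0.5 counts added. DESeq2 1.42.0 gave alternative size factors. The binomial test was checked on simulated counts. A count of 0 was taken to allow 3 counts.

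The members and lists were chosen with earlier results of these data known. Named genes were the miR-101 genes, the 3 nearest to each in level, their neighbours in rank, the Ezh2 list, genes with the common seed bases and the core PRC2 genes. The neighbours in rank (Mir139) were added after values were seen.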

Additional observations from a re-analysis of the deposited data

How the results depend on the processing

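Each level, ratio and library difference was recomputed under the alternatives set out at the start. Per 1000000 reads of the whole library, Mir101a stood at 36.2 and Mir101b at 1318 counts, lower by construction. Both-strand counts, TMM and DESeq2 size factors moved the mean levels by less than the SD. Leaving out 1 library gave 106 to 122 CPM for Mir101a, 3871 to 4453 CPM for Mir101b and a ratio of Mir101a to Mir101b of 0.0274 to 0.0275, beside 0.0321 per hairpin base. The log2 ratio of replicate 2 over replicate 1 kept its sign throughout. For Mir101a it no longer passed with total sense counts (0.20), DESeq2 size factors (0.23) and edgeR at either coefficient of variation (0.25), and for Mir101b with edgeR at either coefficient (0.26). The binomial test called 187 genes (102 higher, 85 lower in replicate 2), and edgeR called 12 at an assumed coefficient of 0.1 and 5 at the estimated one. With total counts the split was 77 higher and 101 lower. No paired analysis was possible because the labels give a single group. At 432 and 367 counts for Mir101a, the 95% interval of its log2 ratio spans 0.05 to 0.46.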
